A study of Homo sapiens with 6 samples.

Results

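The transcripts described here are those of 10 melanocyte lineage and pigmentation genes, MITF, SOX10, PAX3, TYR, TYRP1, DCT, MLANA, EDNRB, GPR143 and TSPAN10, taken by name from the probe annotation of the array. For 9 of them the annotation names at least 1 probe, 17 probes in all, among 20045 genes with a probe of a single symbol. DCT had no named probe and was not analysed here. RNA was taken 48 h after transfection from SK-Mel-147, a human melanoma cell line grown in medium with fetal calf serum. The 6 arrays form 3 groups with 2 arrays per group: cells given miR-638 (a mimic of the microRNA), cells given antagomiR-638 (an oligonucleotide inhibitor of it) and mock cells. The control is given as mock-transfected in the sample titles, as a non-targeting control in the series text and as a control antagomiR in a legend of the study, and mock is used here. Nothing in the labels says whether the duplicate arrays stem from separate cultures. The p-values then measure only the spread between these samples, possibly a technical one.

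Melanocytes are pigment cells that arise from the neural crest. SOX10 and PAX3 are transcription factors of the crest that switch on MITF, the factor that directs melanocyte identity, survival and pigment production. MITF binds short motifs called M-boxes in front of TYR, TYRP1 and DCT, whose enzymes make melanin inside organelles called melanosomes. MLANA, also known as Melan-A, is a melanosome protein used in pathology to recognise melanocytic tumours, and GPR143 is a receptor in the melanosome membrane. EDNRB, the endothelin receptor type B, is needed for melanoblasts to spread and survive. TSPAN10 is a tetraspanin, a protein that crosses the membrane and gathers partners there. It belongs to the TspanC8 group, which binds the membrane protease ADAM10. Melanoma cells vary in how much of this program they keep.

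The mature sequence of miR-638 has 25 bases on chromosome 19, at chr19:10718419-10718443 of the plus strand (RefSeq, GRCh38.p14). It is printed because miR-638 cells were given its mimic and antagomiR-638 cells a different oligonucleotide that inhibits it. Its seed, bases 2 to 8, which leads the pairing with a target transcript, is in capitals. Transcript sequences were not at hand, so neither TSPAN10 nor any other member was searched for sites of the seed.
hsa-miR-638: aGGGAUCGcgggcggguggcggccu

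The promoter of TSPAN10 is shown because its transcript is the one whose level moved, and stretches of the TYR, TYRP1 and GPR143 promoters because they carry the motif by which MITF is known to act on pigment genes. RefSeq promoter windows of 300 bases (250 before a start site and 50 after it, GRCh38.p14) were held for 9 of the 10 genes, in 13 windows; SOX10 had none. The core of the M-box, TCATGTG, was searched on both strands and stood in 5 of the 13 windows, 1 each of TYR, TYRP1, DCT, GPR143 and TSPAN10, and in 2.92% of the 35116 windows of all genes. An extended M-box, TCATGTGCT, which contains the core, stood in 4 of the 13 windows, those of TYR, TYRP1, DCT and GPR143, and in 0.216% of all windows. The shorter E-box CATGTG, which lies inside both, stood in 6 of the 13 windows and in 11.1% of all, and the other E-box, CACGTG, in 0 of the 13 and in 7.26% of all. The SOX motif AACAAAG stood in 0 of the 13 and in 5.2% of all. The TSPAN10 window (chr17:81642055-81642354, plus strand) belongs to a start site 5109 bases inside the annotated gene (chr17:81637196-81648755). Capitals mark the core, which reads CACATGA because it lies on the opposite strand, at position -80 from the start site.
TSPAN10: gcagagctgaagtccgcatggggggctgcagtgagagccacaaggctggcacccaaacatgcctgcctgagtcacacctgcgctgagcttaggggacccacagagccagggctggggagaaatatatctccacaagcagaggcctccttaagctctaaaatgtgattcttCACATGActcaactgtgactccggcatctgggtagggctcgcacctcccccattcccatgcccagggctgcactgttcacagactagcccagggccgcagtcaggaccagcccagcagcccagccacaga
The TYR stretch (chr11:89177744-89177803, plus strand), the TYRP1 stretch (chr9:12693214-12693273, plus strand) and the GPR143 stretch (chrX:9765849-9765908, minus strand) have the extended M-box in capitals, at positions -105, -145 and -35. In GPR143 it lies on the opposite strand, and the letters cacatga at the start of the stretch are another match of the core.
TYR: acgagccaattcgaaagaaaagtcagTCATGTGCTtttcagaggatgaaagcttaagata
TYRP1: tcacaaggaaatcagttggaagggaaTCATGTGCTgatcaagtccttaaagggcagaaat
GPR143: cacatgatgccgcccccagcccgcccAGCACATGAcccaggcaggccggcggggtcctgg
Of the 3 MITF windows, 1 held a cAMP response element, TGACGTCA, at position -152 (chr3:69936342-69936641, plus strand), a motif found in 1.85% of all windows. These are matches of letters and were not tested as binding sites. The M-box is known from the promoters of TYR, TYRP1 and DCT, so its matches there were fixed in advance. The shares beside those of all windows are thus no test of enrichment.

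Per array, 41.8% to 44.1% of the 47319 probes were detected, that is, had a detection p-value under 0.05. Log2 values of arrays of the same group correlated at 0.994 to 0.9952 and those of different groups at 0.9762 to 0.9877, across the kept probes, which share their arrays and are not independent. The deposited intensities are background-subtracted, so that a probe without signal scatters about 0 and can be negative. They had also been brought to the same distribution on every array, so a change of all transcripts in the same direction could not be seen. In these cells, fewer cells carrying a transcript and less of it per cell cannot be told apart.

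The melanin enzymes with a probe and several melanosome genes were at background, while part of the regulators of the program were detected. Of the 17 probes, 4 were detected on all 6 arrays, 1 each for MITF, SOX10, EDNRB and TSPAN10. A further 5 were detected on 1 to 5 arrays and 8 on none. The melanin enzymes TYR and TYRP1 and the antigen MLANA have 1 probe each, and these were detected on 0 of 6 arrays, with detection p-values of 0.675 to 0.936 for TYR, 0.543 to 0.930 for TYRP1 and 0.145 to 0.970 for MLANA. Defining markers of the pigmented melanocyte were thus not detected in any group. PMEL, which forms the fibrils of the melanosome, and OCA2, a melanosome membrane transporter, were also detected on 0 arrays, and SLC45A2 and SLC24A5, other pigment transporters, on at most 1 array by any probe. Of the 25 genes listed for melanosome matrix, pumps, biogenesis and transport, 19 were detected on all 6 arrays. RAB32, RAB38, MLPH and MYO5A were among them, RAB32 at up to 1002. The list also holds genes of sorting complexes and of lysosome size, so this count is no measure of pigment cell identity. The plot of detection p-values shows the division among the 17 probes.

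**Figure D1:**
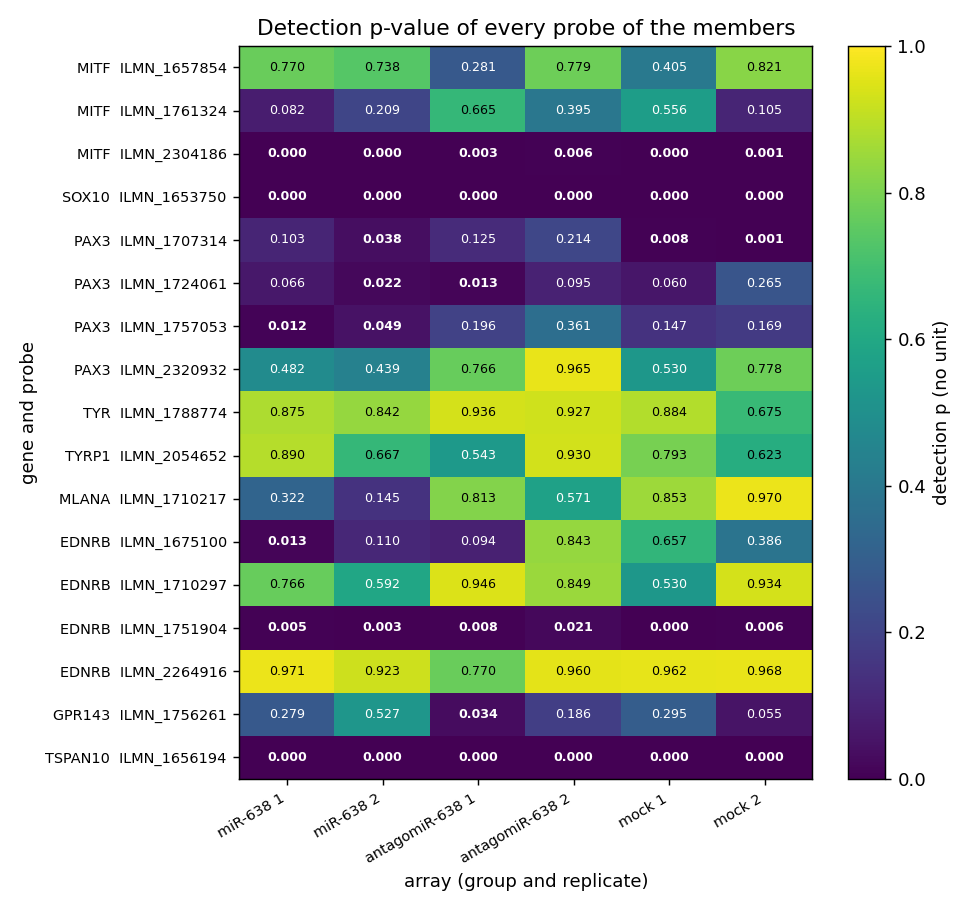
Detection p-value (colour and number, no unit) of each of the 17 probes (rows, with gene and probe) on each of the 6 arrays (columns, by group and replicate), with values under 0.05 in bold. SOX10, TSPAN10 and 1 probe each of MITF and EDNRB are bold in every column, while TYR, TYRP1 and MLANA are bold in none.

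A probe was kept for testing if it was detected on both arrays of at least 1 group, which left 6 probes of 5 genes: MITF, SOX10, PAX3 (2 probes), EDNRB and TSPAN10. TYR, TYRP1, MLANA and GPR143 had probes but none that passed. Differences were tested on normalized log2 intensity with limma over all 20145 kept probes and called at a Benjamini-Hochberg adjusted p of 0.01 or less. PAX3 passed through single groups only, so its differences are partly fixed by that filter.

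TSPAN10 (probe ILMN_1656194) was the member that moved. Its deposited intensity was 66.0 and 69.2 in miR-638 cells, 600.2 and 519.4 in antagomiR-638 cells, and 143.6 and 129.4 in mock cells. The 3 groups did not overlap: both antagomiR-638 arrays were high, both miR-638 arrays were low, and the mock arrays lay between. The means were 67.6 ± 2.21 in miR-638 cells, 559.8 ± 57.1 in antagomiR-638 cells and 136.5 ± 10.0 in mock cells (SD, n = 2 each).

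With antagomiR-638, TSPAN10 rose against mock by 1.92 ± 0.12 (SE) on the log2 scale, or 3.77-fold (95% interval of the log2 difference 1.64 to 2.19, limma adjusted p = 5.26e-05). Of the 5 members tested it was the 1 called higher, and 0 were called lower (1 higher and 1 lower with p under 0.05 before adjustment), where 4.53% of all kept probes were called higher and 4.25% lower in this comparison. With miR-638, TSPAN10 fell against mock by 0.87 ± 0.12 (SE) on the log2 scale, so that mock cells were 1.82-fold higher (interval -1.15 to -0.59, limma adjusted p = 0.00401). Here too it was the single member called, 1 of 5 lower and 0 higher (2 lower and 0 higher with p under 0.05 before adjustment), where 0.918% of kept probes were called lower and 1.44% higher. This call was the less stable: leaving out any 1 of the 6 arrays kept the direction but put the adjusted p between 0.0111 and 0.0371, with differences of -0.93 to -0.80. Without miR-638 replicate 1 the adjusted p was 0.0371, without miR-638 replicate 2 0.029, without mock replicate 1 0.0316, without mock replicate 2 0.0217, and without either antagomiR-638 array 0.0111. Both comparisons use the same mock arrays.

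The contrast that does not use mock was the largest for TSPAN10. miR-638 cells differed from antagomiR-638 cells by -2.78 ± 0.12 (SE) on the log2 scale, a level 6.88-fold higher in antagomiR-638 cells (interval -3.06 to -2.50, limma adjusted p = 6.65e-06). Counted from the lowest, this difference ranked 7 of the 20145 kept probes. Against mock, TSPAN10 ranked 29 from the highest with antagomiR-638 and 114 from the lowest with miR-638. The members were chosen with earlier results of these data known, so these ranks are no independent evidence. On the deposited intensities the ratio of the antagomiR-638 to the miR-638 mean was 8.28, the offset of the background model drawing folds toward 1. Of the 5 members tested, 1 was called lower and 0 higher in miR-638 than in antagomiR-638 cells (1 lower and 1 higher with p under 0.05 before adjustment), where 6.32% of kept probes were called lower and 6.35% higher. The calls of TSPAN10 with antagomiR-638 against mock and with miR-638 against antagomiR-638 held in 13 of 13 alternatives, at differences of 1.71 to 2.03 and -3.05 to -2.37. The gene has this 1 probe, so no other probe bears on it.

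**Figure D2:**
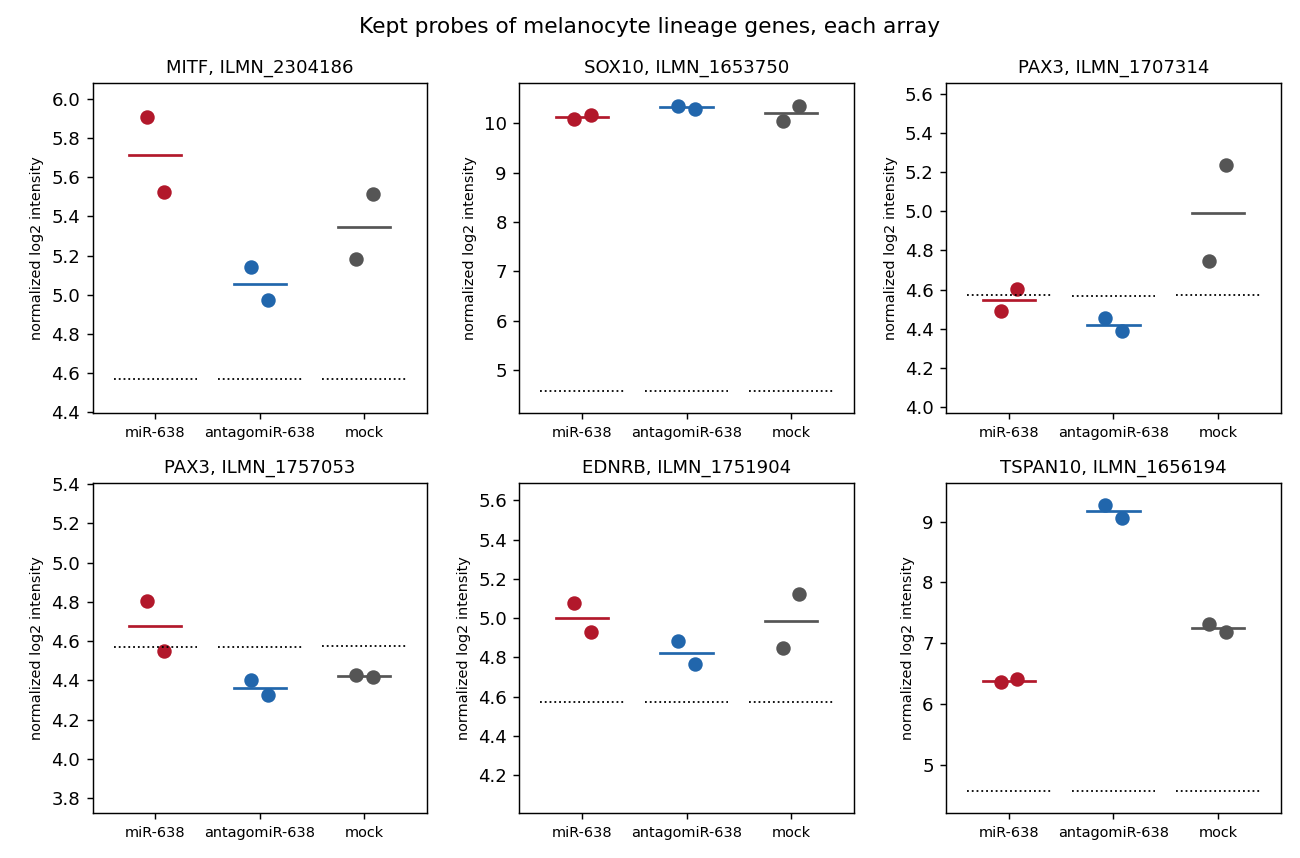
Normalized log2 intensity (vertical axis, a separate range in each panel) of the 6 kept probes on each array (points) in miR-638, antagomiR-638 and mock cells, with the mean of the 2 arrays (solid line) and the mean detection limit of the group (dotted line). TSPAN10 separates the groups, SOX10 lies far above the limit in all of them, and PAX3 and EDNRB lie near it.

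MITF was detected on all 6 arrays by 1 of its 3 probes, ILMN_2304186, at intensities not far above the detection limit, which was 6.83 to 7.87 per array. The probe gave 44.0 and 30.2 in miR-638 cells, 19.4 and 15.5 in antagomiR-638 cells, and 20.4 and 29.7 in mock cells. The groups did not overlap in any of the 3 comparisons, with miR-638 highest and antagomiR-638 lowest, but the gaps between neighbouring groups were small beside the distance between replicates. The means were 37.1 ± 9.74 in miR-638 cells, 17.5 ± 2.74 in antagomiR-638 cells and 25.04 ± 6.59 in mock cells (SD, n = 2 each).

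No MITF difference was called. Between miR-638 and antagomiR-638 cells the log2 difference was 0.66 ± 0.16 (SE), or 1.58-fold (interval 0.29 to 1.03, limma adjusted p = 0.0179), and over the alternatives the adjusted p ran from 0.0104 to 0.117. Against mock the differences were 0.37 with miR-638 (interval -0.00 to 0.74, limma adjusted p = 0.196) and -0.29 with antagomiR-638 (interval -0.66 to 0.08, limma adjusted p = 0.243). The order of the MITF group means was the reverse of that of TSPAN10, without passing the threshold. The other MITF probes, ILMN_1657854 and ILMN_1761324, are annotated to other transcripts of the gene and were detected on 0 arrays.

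SOX10 (ILMN_1653750) was the member most clearly retained, with a signal far above the detection limit in every group. Its intensity was 1067 and 1134 in miR-638 cells, 1300 and 1237 in antagomiR-638 cells, and 1046 and 1295 in mock cells. The mock arrays lay near either end of this range. The log2 differences were -0.08 with miR-638 against mock (interval -0.38 to 0.22, limma adjusted p = 0.754), 0.12 with antagomiR-638 against mock (interval -0.18 to 0.42, limma adjusted p = 0.555) and -0.20 between miR-638 and antagomiR-638 cells (interval -0.50 to 0.10, limma adjusted p = 0.302). No SOX10 difference was called. The miR-638 and antagomiR-638 arrays did not overlap, while the mock arrays, with the widest spread, overlapped both. The signs of both differences from mock rested on single mock arrays: without mock replicate 2 that of miR-638 was 0.07, and without mock replicate 1 that of antagomiR-638 was -0.03.

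PAX3 has 4 probes, which disagreed and stayed at the edge of detection. ILMN_1707314 gave 5.59 and 8.02 in miR-638 cells, 4.76 and 3.04 in antagomiR-638 cells, and 10.8 and 21.8 in mock cells, and was detected on 1, 0 and 2 arrays of these groups. ILMN_1757053 gave 11.98 and 6.86 in miR-638 cells, 3.39 and 1.17 in antagomiR-638 cells, and 4.05 and 3.88 in mock cells, detected on 2, 0 and 0 arrays. The first probe was thus highest in mock cells and the second in miR-638 cells. For the first, antagomiR-638 against mock differed by -0.57 ± 0.16 (SE) on the log2 scale with an adjusted p of 0.0349 in limma, at least 1.34-fold higher in mock cells against the signal at the detection limit, and miR-638 against mock by -0.44 with an adjusted p of 0.121. For the second, miR-638 was at least 1.08-fold higher than antagomiR-638 (limma adjusted p = 0.1) and at least 1.07-fold higher than mock (limma adjusted p = 0.24). None was called. ILMN_1724061 was detected on 2 arrays, miR-638 replicate 2 and antagomiR-638 replicate 1, and ILMN_2320932 on 0 arrays. Both are annotated to transcripts other than that of the kept probes.

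EDNRB (ILMN_1751904) was detected on all 6 arrays at low signal: 17.8 and 14.6 in miR-638 cells, 13.6 and 11.2 in antagomiR-638 cells, and 12.9 and 19.0 in mock cells. The mock arrays spanned both miR-638 arrays, and no difference was called. The log2 differences were 0.02 with miR-638 against mock (interval -0.29 to 0.32, limma adjusted p = 0.958), -0.16 with antagomiR-638 against mock (interval -0.46 to 0.14, limma adjusted p = 0.423) and 0.18 between miR-638 and antagomiR-638 cells (interval -0.12 to 0.48, limma adjusted p = 0.368). The difference between miR-638 and mock cells had no settled sign, being -0.12 without mock replicate 1, -0.06 without miR-638 replicate 1 and -0.04 from the deposited intensities with a floor. Of its 3 other probes, ILMN_1675100 was detected on miR-638 replicate 1 alone, and ILMN_1710297 and ILMN_2264916 on 0 arrays. ILMN_1710297 is annotated to another transcript. GPR143 (ILMN_1756261), whose product sits in the melanosome membrane, gave 2.42 and -0.40 in miR-638 cells, 9.25 and 3.43 in antagomiR-638 cells, and 2.07 and 7.29 in mock cells, and passed the detection limit on antagomiR-638 replicate 1 alone.

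**Figure D3:**
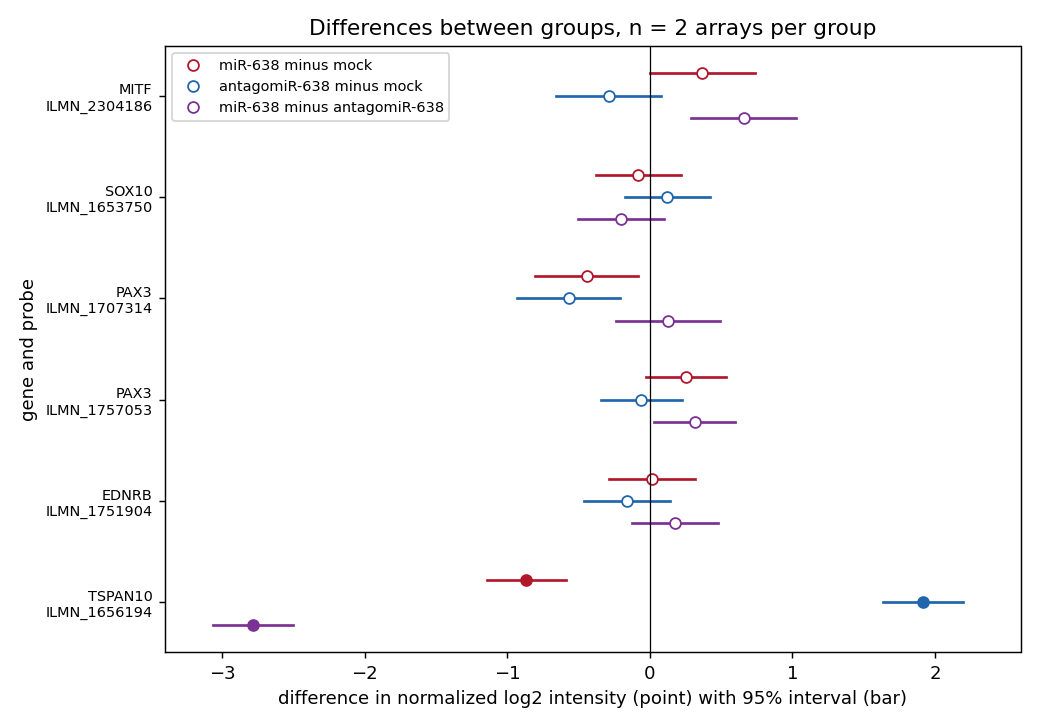
Difference in normalized log2 intensity (points, horizontal axis) with its 95% interval (bars) for the 6 kept probes in the 3 comparisons, filled where the adjusted p was 0.01 or less. The 3 TSPAN10 differences, at -0.87, 1.92 and -2.78, are the filled ones.

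Over the 5 members tested, the median log2 difference was -0.08 with miR-638 against mock, -0.16 with antagomiR-638 against mock and 0.13 between miR-638 and antagomiR-638 cells, where the medians of all kept probes were -0.01, -0.01 and 0.01. In a test of any difference among the 3 groups (limma's moderated F), TSPAN10 alone of the members passed, with an adjusted p of 1.06e-05, beside 13.9% of kept probes. MITF had an adjusted p of 0.036 in it.

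Ligands that act on melanocytes from outside were among the genes called. EDN1, endothelin 1, a ligand of EDNRB, gave 612.5 and 451.6 in miR-638 cells, 49.2 and 51.9 in antagomiR-638 cells, and 50.2 and 40.6 in mock cells. Only the miR-638 arrays were high, by 3.15 on the log2 scale against mock (limma adjusted p = 5.65e-05) and 3.03 against antagomiR-638 (limma adjusted p = 1.24e-05). The call against mock was lost with the deposited intensities and a floor of 16, at an adjusted p of 0.0199. That setting, under which far fewer probes were called over the whole array, kept 5 of the 25 calls in the gene lists for genes that are no members, against 23 with an offset of 50 and 18 with the replicate block. The 5 are those of KITLG in both comparisons, EDN1, POU3F2 and LUM between miR-638 and antagomiR-638 cells. EDN3, the endothelin best known from melanocyte development, and ECE1, which makes mature endothelin, were detected on 0 arrays. ECE1 rests on 1 probe. ECE2, a related converting enzyme, was detected on all 6 arrays by its kept probe, at 27.86 to 40.96, and was not called.

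KITLG, the ligand of the receptor KIT, gave 140.2 and 156.8 in miR-638 cells, 376.9 and 400.8 in antagomiR-638 cells, and 107.3 and 117.3 in mock cells. It rose with antagomiR-638 against mock by 1.66 on the log2 scale (limma adjusted p = 9e-05) and differed by -1.30 between miR-638 and antagomiR-638 cells (limma adjusted p = 0.000123). Its second kept probe was at 1.40 and -1.16 in these comparisons. KIT was detected on at most 1 array by any of its probes. MC1R, the melanocortin receptor that raises cAMP and through it MITF, gave 71.4 and 89.9 in miR-638 cells, 242.9 and 173.1 in antagomiR-638 cells, and 108.7 and 128.2 in mock cells. Its groups had the same order as those of TSPAN10. It differed by -1.20 on the log2 scale between miR-638 and antagomiR-638 cells (limma adjusted p = 0.00117), a call lost when either of 2 arrays was left out, with an adjusted p of up to 0.0143. Against mock it was not called, at -0.48 with miR-638 (limma adjusted p = 0.116) and 0.72 with antagomiR-638 (limma adjusted p = 0.0178).

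Among the 9 genes kept of 17 with a probe in this list of ligands, receptors and cAMP enzymes, 1 was higher and 0 lower with miR-638 against mock, 1 higher and 0 lower with antagomiR-638 against mock, and 1 higher and 3 lower in miR-638 than in antagomiR-638 cells. Over all kept probes 1.44% were called higher and 0.918% lower, 4.53% higher and 4.25% lower, and 6.35% higher and 6.32% lower in these comparisons, which is also the background of the lists that follow. The remaining call was PRKAR1A, a regulatory subunit of protein kinase A, at -0.57 (limma adjusted p = 0.00618), lost in 4 of the 6 fits without 1 array at up to 0.0466. The medians of the list were -0.13, 0.13 and -0.18 in the same comparisons.

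Of 20 factors that act on the MITF promoter or pair with MITF, 16 were kept. Against mock, 0 were higher and 1 lower with miR-638, and 2 higher and 0 lower with antagomiR-638. Between miR-638 and antagomiR-638 cells, 2 were higher and 3 lower. All kept probes were called at 0.918% lower with miR-638 against mock, 4.53% higher with antagomiR-638 against mock, and 6.35% higher and 6.32% lower in the direct comparison. The medians were 0.07, 0.10 and -0.04. TFAP2A, the AP-2 factor shared by crest and skin, gave 299.6 and 250.4 in miR-638 cells, 692.1 and 693.5 in antagomiR-638 cells, and 508.8 and 556.3 in mock cells. It was lower with miR-638 both against mock, by -0.92 (limma adjusted p = 0.00338), and against antagomiR-638, by -1.29 (limma adjusted p = 0.000162). Its second kept probe was at -0.70 and -1.23. The first of these calls was lost when any 1 array was left out, at an adjusted p of up to 0.033, and with the floor both were lost, at 0.0439 and 0.0122.

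POU3F2, also called BRN2, a neural factor known to repress MITF in invasive melanoma cells, gave 9.48 and 18.2 in miR-638 cells, 53.6 and 64.1 in antagomiR-638 cells, and 14.9 and 13.9 in mock cells. It was high in antagomiR-638 cells alone, by 1.30 against mock (limma adjusted p = 0.000619) and with a difference of -1.33 between miR-638 and antagomiR-638 cells (limma adjusted p = 0.000366). Its second kept probe was at 0.69 and -0.89. The call against mock was lost without antagomiR-638 replicate 2, at an adjusted p of 0.0117. PIAS3, an E3 SUMO ligase that binds MITF, rose with antagomiR-638 against mock by 0.69 (limma adjusted p = 0.00878). In the direct comparison SOX9, a relative of SOX10, was higher in miR-638 than in antagomiR-638 cells by 0.74 (limma adjusted p = 0.00239), while SOX2 was lower, with a limma adjusted p of 0.00378. SOX2 was detected on neither miR-638 array and was at least 1.42-fold higher in antagomiR-638 cells. The filter kept SOX2 only through the antagomiR-638 and mock arrays, where it is higher. Its direction, and its place among the factors counted as lower, are thus partly fixed by that filter. The calls of PIAS3, SOX9 and SOX2 were each lost in 3 or 4 of the 6 fits without 1 array, at adjusted p-values of up to 0.0697, 0.0271 and 0.0374. With the floor they were at 0.0702, 0.0201 and 0.481, SOX2 was also lost with an offset of 50, at 0.0165, and PIAS3 with the replicate block, at 0.0118.

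Of 25 genes for melanosome matrix, pumps, biogenesis and transport, all had a probe, 19 were kept, and these 19 were detected on all arrays. With miR-638 against mock 0 were called by limma (3 higher and 5 lower with p under 0.05 before adjustment), the largest differences being those of HPS6 at -0.59 (limma adjusted p = 0.015) and HPS1 at -0.57 (limma adjusted p = 0.0378), both subunits of complexes that build lysosome-related organelles. The second kept HPS1 probe was at -0.2. With antagomiR-638 against mock 1 was higher and 0 lower, BLOC1S2, of the BLOC-1 sorting complex, by 0.78 (limma adjusted p = 0.00409). Between miR-638 and antagomiR-638 cells 0 were higher and 3 lower: LYST, which controls lysosome size, by -0.87 (limma adjusted p = 0.00127), ATP7A, the copper pump that loads tyrosinase, by -0.82 (limma adjusted p = 0.00394), and HPS6 by -0.53 (limma adjusted p = 0.00888). The HPS6 call was lost when any 1 array was left out, at an adjusted p of up to 0.0709, and the others in 3 or 4 of 6 such fits, at up to 0.0454 for BLOC1S2, 0.0159 for LYST and 0.0393 for ATP7A. The medians were -0.08, 0.04 and -0.15.

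Of the targets of MITF outside pigment synthesis, 11 of 18 with a probe were kept. CDK2, the cell cycle kinase that MITF is known to sustain in melanoma, fell with antagomiR-638 against mock by 0.65 on the log2 scale (limma adjusted p = 0.00703), a call lost when any 1 array was left out, at an adjusted p of up to 0.053. Its second kept probe was at -0.56. No other of these targets was called by limma in any comparison. Before adjustment, with p under 0.05, 2 were higher and 2 lower with miR-638 against mock, 2 higher and 3 lower with antagomiR-638 against mock, and 3 higher and 1 lower in miR-638 than in antagomiR-638 cells. The largest differences among them were those of CTSK, a lysosomal protease, at -0.63 with miR-638 against mock (limma adjusted p = 0.022) and -0.47 against antagomiR-638 (limma adjusted p = 0.0302), and of GPM6B, a membrane glycoprotein, at 0.57 with miR-638 against mock (limma adjusted p = 0.0695) and 0.46 against antagomiR-638 (limma adjusted p = 0.0821). The second kept GPM6B probe was at 0.47 and 0.16. The medians of the targets were -0.19, -0.16 and 0.06.

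Most markers of the dedifferentiated melanoma state, in which MITF is low, were detected, while the single probes of TYR, TYRP1 and MLANA were not. Of the 11 markers with a probe, 8 were detected on all arrays. LOXL2 was detected on 0 arrays, TEAD1 on at most 1 and FN1 on at most 2. AXL, a receptor kinase of that state, gave 2957 and 2743 in miR-638 cells, 3646 and 2957 in antagomiR-638 cells, and 2824 and 3098 in mock cells, with no call. Of 8 markers kept of 11 with a probe, 0 were called by limma with miR-638 against mock (2 higher and 2 lower with p under 0.05 before adjustment). There NGFR, a neural crest receptor, was at -0.68 (limma adjusted p = 0.0249) and WNT5A, a secreted Wnt, at -0.65 (limma adjusted p = 0.0108). WNT5A fell with antagomiR-638 against mock by 0.90 on the log2 scale (limma adjusted p = 0.000865), the single call there. NGFR was the single call between miR-638 and antagomiR-638 cells, at -0.97 (limma adjusted p = 0.00175). Each was lost in 2 of the 6 fits without 1 array, at an adjusted p of up to 0.0139 for WNT5A and 0.0247 for NGFR. The medians were -0.03, -0.09 and 0.16.

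**Figure D4:**
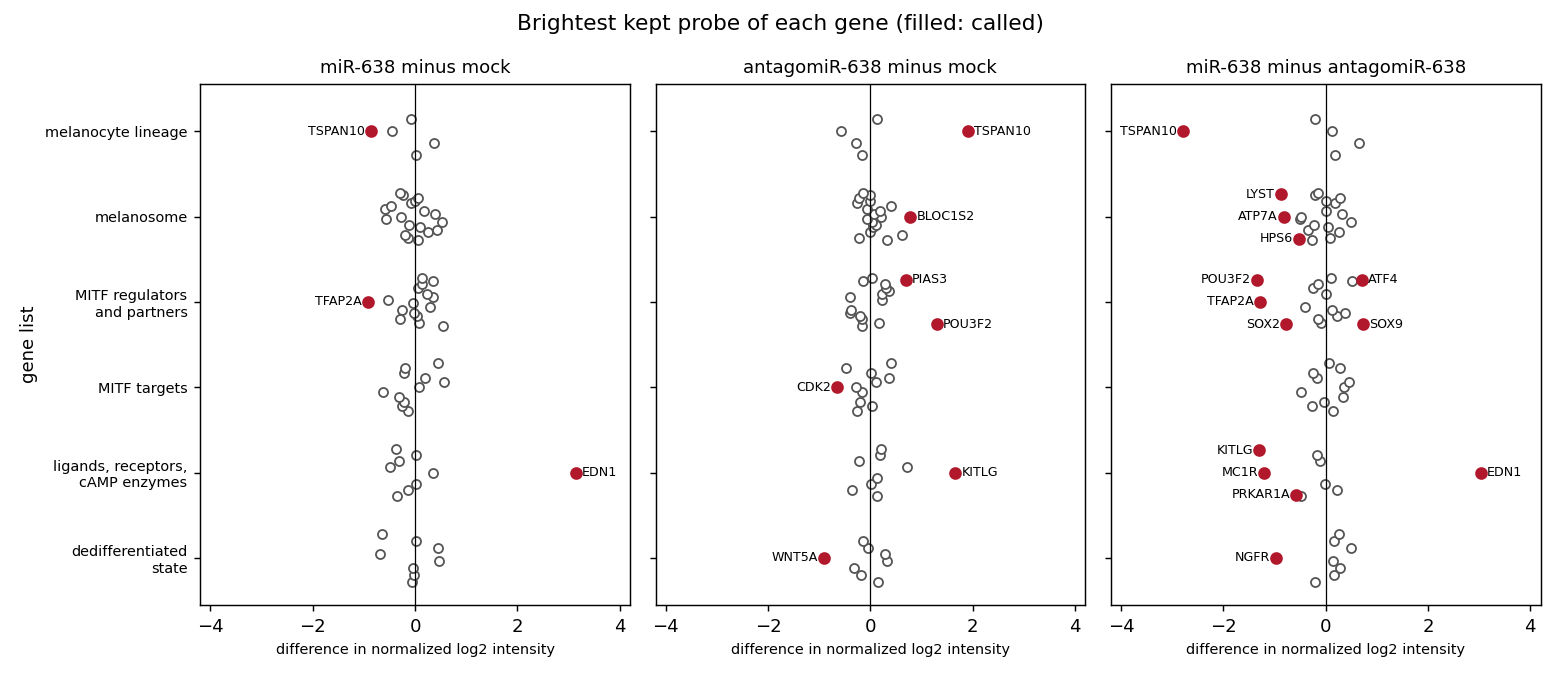
Difference in normalized log2 intensity (horizontal axis) of the brightest kept probe of each gene in 6 gene lists (rows) in the 3 comparisons (panels), filled and named where the adjusted p was 0.01 or less. In each list most genes lie near 0, and TSPAN10, EDN1, KITLG and POU3F2 lie farthest from it in at least 1 panel.

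Genes that touch TSPAN10 by function or position were added after its values were seen. Of 6 such genes for the TspanC8 group and ADAM10, 4 were kept. TSPAN5 rose with antagomiR-638 against mock by 0.77 on the log2 scale (limma adjusted p = 0.00542), a call lost in 4 of the 6 fits without 1 array at up to 0.0521, and no other was called in any comparison. TSPAN17 was at -0.53 between miR-638 and antagomiR-638 cells (limma adjusted p = 0.0177), with its second kept probe at -0.18. ADAM10 was at -0.19 in that comparison (limma adjusted p = 0.423). Of 6 genes near TSPAN10 on chromosome 17, 5 were kept and 0 were called by limma in the comparisons with miR-638 (2 higher than mock with p under 0.05 before adjustment, and 0 against antagomiR-638). OXLD1 was higher with antagomiR-638 against mock by 0.56 (limma adjusted p = 0.00898), but its other kept probe was at -0.18 and the call was lost when any 1 array was left out. NPLOC4 was at -0.15 with antagomiR-638 against mock (limma adjusted p = 0.387), and PDE6G was detected on 0 arrays.

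Markers of other cell types were partly detected. Of the markers with a probe, 4 of 8 for keratinocytes, 4 of 9 for fibroblasts, 4 of 7 for leukocytes and 2 of 5 for Schwann cells were detected on no array, the collagens COL1A2 and COL3A1, PTPRC and S100B among them. KRT10 for keratinocytes, LUM for fibroblasts, CD14 for leukocytes, and ERBB3 and L1CAM for Schwann cells were each detected on all 6 arrays. Their highest intensities were 1287, 704.2, 24.33, 23.67 and 46.4. Of the 9 fibroblast markers 2 were kept, LUM and THY1, and they went opposite ways between miR-638 and antagomiR-638 cells. LUM, the matrix protein lumican, had the group order of TSPAN10: 432.5 and 439.6 in miR-638 cells, 688.6 and 704.2 in antagomiR-638 cells, and 558.0 and 563.1 in mock cells, with a difference of -0.66 between miR-638 and antagomiR-638 cells (limma adjusted p = 0.00264). The LUM call was lost in 4 of the 6 fits without 1 array, at an adjusted p of up to 0.0247. THY1, a surface glycoprotein, gave 11.06 and 7.66 in miR-638 cells, 1.81 and -1.46 in antagomiR-638 cells, and 2.35 and -1.20 in mock cells, a difference of 0.37 between miR-638 and antagomiR-638 cells that was not called (limma adjusted p = 0.0501) and that the filter partly fixed, since it was kept through the miR-638 arrays alone. The summed normalized intensity of the 9 fibroblast markers, in which LUM was the bright one, was 614.3 to 635.4 in miR-638 cells, 870.6 to 886.6 in antagomiR-638 cells and 739.6 to 747.1 in mock cells. CDH19, a marker of Schwann cell precursors, was detected on both antagomiR-638 arrays and on 0 miR-638 and 0 mock arrays, so that the filter kept it through the group where it is high, and its direction is no finding. It was at least 1.25-fold higher in antagomiR-638 than in miR-638 cells (limma adjusted p = 0.00493, but 0.0366 with an offset of 50, 1 with the floor and 0.0104 with the replicate block). All 6 arrays are of the SK-Mel-147 line, and a detected marker does not show that another cell type was present. Any link of these markers to the TSPAN10 result was not tested. No keratinocyte or leukocyte marker was called in limma in any comparison, and 0 had an unadjusted p under 0.05.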

How the data were processed

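SK-Mel-147 transcripts were measured on 6 Illumina HumanHT-12 v4 arrays. The authors' processing used lumi, per the labels (version not given in the sources used here). Their deposited intensity values are linear, background-subtracted (26.2% lie below 0) and already quantile-normalized by the authors, the sorted columns of the intensity table differing by at most 0.349 and those of the processed table by 0. Column medians were 4.873 to 4.885 in the intensity table and 4.88 in the processed table. The deposited detection p-value was written by the scanner software and moves in steps of 1 in 770. A detected probe is one with a detection p-value under 0.05.

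Gene symbols came from the platform's probe table, where 30112 of the 47319 probes had 1 symbol, 8 had several and 17199 had none. Deposited intensities passed limma 3.58.1 in R 4.3.3: normexp background model with detection p-values and an offset of 16, quantile normalization, log2. The offset draws folds of dim probes toward 1. Probes detected on both arrays of at least 1 group were kept (20145). A model of group means on all 6 arrays (3 residual and 6.31 prior degrees of freedom) gave 3 differences and a moderated F test, all p-values two-sided and Benjamini-Hochberg adjusted over the kept probes. An exact permutation test of 2 against 2 arrays cannot go below p = 0.333 and was not used. A gene was represented by its kept probe of highest mean. A fold against a group detected on none of its arrays is a bound: the mean log2 signal of the brighter group against, per array of the dimmer one, the higher of the detection limit and the probe's own signal.

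The members and gene lists were chosen with earlier results of these data known. All members are given with every probe. Of each list, up to 4 called genes by size, or the 2 largest where none was called, are named, plus EDN1, EDN3, ECE1, MC1R, KIT, KITLG and PMEL. AXL, LOXL2, FN1, TEAD1, OCA2, SLC45A2, SLC24A5, RAB32, RAB38, MLPH, MYO5A and ECE2 were named after their values were seen. So were the markers of other cells that are named as undetected or as detected on all arrays. Alternatives changed the offset, the values used (deposited or processed, with a floor of 16), the probe filter, the threshold and the groups in the fit. Others used a replicate block or left out 1 array at a time. Tested on simulated log2 values for 20145 probes, the model recovered 23.9% of probes changed 1.5-fold and 100% of those changed 2-fold for miR-638 against mock, with 4 false calls. For antagomiR-638 against mock it recovered 26.9% and 94%, with 5 false calls, and for miR-638 against antagomiR-638 44.8% and 100%, with 5. In each comparison 67 simulated probes were changed 1.5-fold, 67 2-fold and 66 3-fold, fewer in all than were called in the data. The recovery at a larger share of changed probes was not tested. These folds are of log2 values. The recovery does not carry over to folds in deposited intensity of dim probes, which the offset draws toward 1. Sequences are from RefSeq.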

Additional observations from a re-analysis of the deposited data

How the results depend on the processing

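The call of TSPAN10 with miR-638 against mock held in 3 of 13 alternatives, always lower, at -1.01 to -0.66 on the log2 scale and adjusted p-values of 0.00161 to 0.0373. The count of members called in that comparison, 1, became 0 from the deposited intensities with a floor of 16, from the processed table with that floor, with no filter on dim probes and in a fit of the 2 groups alone, and was 0 to 0 when 1 array was left out. At an adjusted p of 0.05 the members called were 2 with antagomiR-638 against mock, PAX3 joining at 0.0349 through a probe kept only for its mock arrays, the group where it is high, and 2 between miR-638 and antagomiR-638, MITF joining at 0.0179. MITF, SOX10, PAX3 and EDNRB were called under no alternative at the threshold of 0.01.

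Signs turned only for small differences that were not called. EDNRB with miR-638 against mock was -0.0441 from the deposited intensities with a floor and -0.0444 from the processed table, and -0.1211 to 0.154 with 1 array left out. SOX10 was -0.2329 to 0.0711 with miR-638 against mock and -0.0302 to 0.2737 with antagomiR-638 against mock when 1 array was left out. With the floor, some PAX3 comparisons had both groups at the floor and gave no value, and the strict filter left out PAX3 and EDNRB.

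Counts over all probes moved more. With miR-638 against mock, 475 probes were called, but 977 with an offset of 50, 26 from the deposited intensities with a floor and 26 from the processed table, 176 with no filter, 755 with the strict filter, 206 from the 2 groups alone, 1817 at an adjusted p of 0.05, and 58 to 206 with 1 array left out. With antagomiR-638 against mock the count of 1768 became 287 with the floor in either table, 1049 with no filter, 4158 at 0.05 and 404 to 1517 with 1 array left out. Between miR-638 and antagomiR-638 it was 2552, but 679 and 680 with the floor, 5035 at 0.05 and 777 to 2338 with 1 array left out. The causes were not tested, beyond the looser threshold and the smaller number of arrays.

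Replicate numbers do not pair the arrays: deviations of same-numbered arrays correlated at -0.059, -0.069 and -0.054. With the replicate block, 280, 1366 and 2034 probes were called in the 3 comparisons, and no member gained or lost a call. Dim signal limits MITF, PAX3 and EDNRB, whose probes lie near the detection limit, and 2 arrays per group limit all values.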
